A study of Drosophila melanogaster with 2 samples.

Results

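The subject is RNA from the strands of piRNA clusters in *Drosophila melanogaster* ovaries. The members are all entries named as a cluster strand in the deposited lists of features that were higher in homozygous than in heterozygous CG5508 mutant ovaries. There were 14 such strands from 9 loci, among 403 distinct entries in the 5 deposited lists. The loci are flam, 42AB and those numbered 02, 05, 08, 11, 14, 16 and 19. Ovaries came from flies of 3 to 5 days, kept at 25 °C, that were homozygous for z3-5967, a mutant allele of CG5508, or heterozygous for the same allele. The controls therefore carried the mutant allele as well. CG5508, called Minotaur in the title of the study, encodes a glycerol-3-phosphate acyltransferase. Each genotype was represented by 1 library of total RNA, made with primers selected against ribosomal RNA, so no difference has a replicate check.

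piRNA clusters are transposon-rich loci whose long transcripts are cut into piRNAs, the small RNAs that guide Piwi proteins to transposon transcripts. The flam locus is transcribed from a single strand in the somatic follicle cells that surround the germline, and its piRNAs silence gypsy-type retrotransposons. The 42AB locus is a germline cluster read from both strands, which depends on the heterochromatin protein Rhino. Transposon fragments in flam mostly lie antisense to its transcript, which is what makes its piRNAs antisense to the transcripts of those elements.

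Levels are the authors' normalized reads, and folds are homozygous over heterozygous. Whole reads behind each level were recovered from the size factors, and intervals in parentheses are exact 95% intervals on those reads. Such intervals hold counting error alone and say nothing of how flies of a genotype vary. By the size factors, the homozygous library was 1.34 times as deep as the heterozygous library, and the total depth is unknown because the lists hold a part of each library. CG5508 was in none of the lists, so its level cannot check the genotype labels. The follicle cell markers Cp15 and Cp38, both eggshell genes, were listed as lower, while tj, fs(1)Yb and the germline markers vas, nos, osk and bam were in no list and were not analysed here.

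With uniquely mapped reads, 8 strands of 6 loci were listed as higher. Raw and adjusted p-values in the authors' deposited table imply that about 21957 entries were tested, and 0.515% of these were listed as higher. With up to 10 mappings per read, which adds reads of repeated sequence, 14 strands of 9 loci were listed, against 1.55% of about 23690 entries. Nothing is read from these shares, because being listed is what made a strand a member. No cluster strand was in a list of lower features. Strands in no list have no value here and cannot be called unchanged. The authors' deposited tables gave an adjusted p below 0.01 to 5 of the 8 strands with uniquely mapped reads (background 0.296%) and 9 of the 14 with up to 10 mappings (background 1.22%). At least 4-fold differences were found for 5 of 8 (background 0.319%) and 7 of 14 strands (background 1.21%). These backgrounds include entries that were not listed, so nothing is read from them either. Of all entries listed as higher, 65 of 113 and 288 of 367 had such a p. At least 4-fold differences were found for 70 of 113 and 286 of 367.

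**Figure D1:**
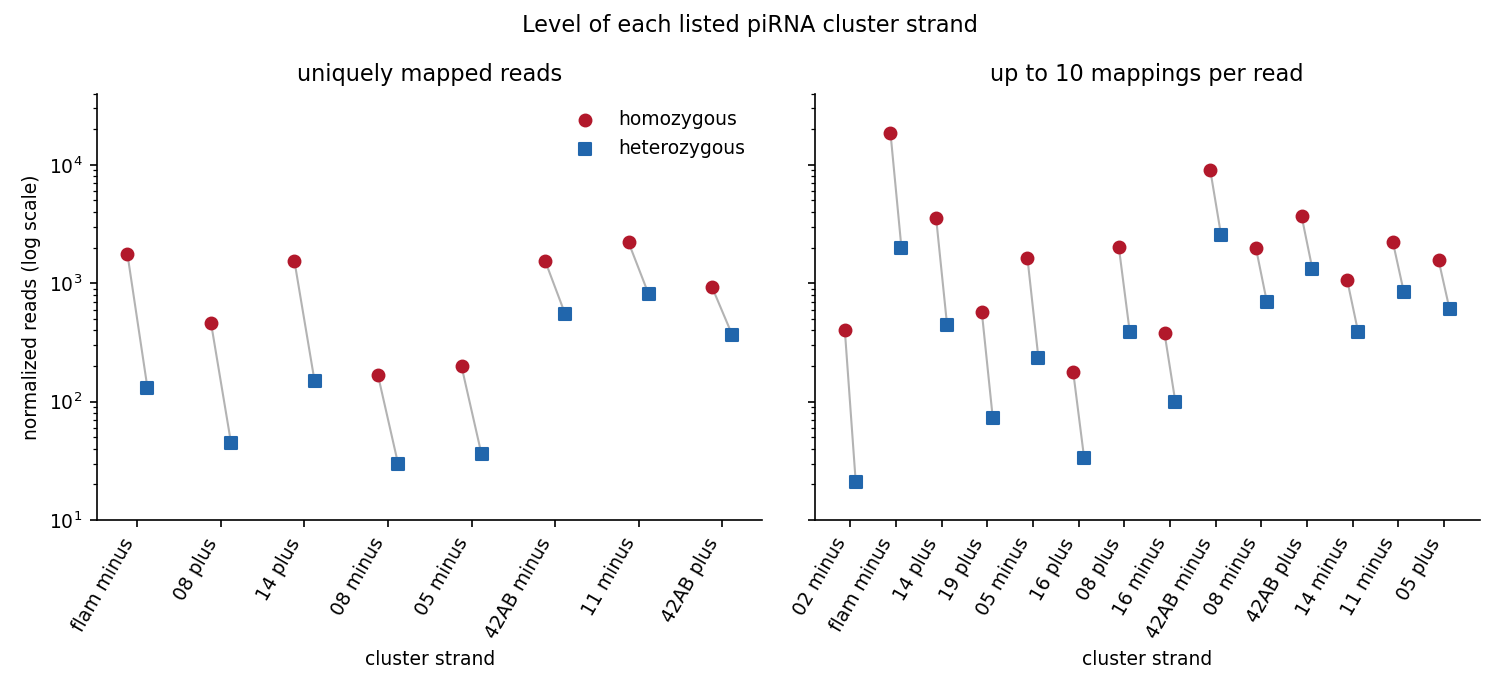
Normalized reads (log scale) of each listed cluster strand in the homozygous library (red circles) and the heterozygous library (blue squares), with uniquely mapped reads on the left and up to 10 mappings per read on the right; a grey line joins the libraries for each strand. The homozygous point lies above the heterozygous one for all 8 strands on the left and all 14 on the right.

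The minus strand of flam had 1763 normalized reads in homozygous ovaries, against 131 in heterozygous ovaries, with uniquely mapped reads. These were 2039 recovered reads in homozygous and 113 in heterozygous ovaries, a 13.5-fold difference (11.2 to 16.5). It was the highest fold of the 8 strands, and the authors' deposited table gave it an adjusted p of 2.19e-18. Its plus strand was not listed with either treatment of reads. In the dm6 build the annotated transcript lncRNA:flam (FBgn0267704) runs on the plus strand of the X chromosome, from 21631891 to 21790731. The listed strand is thus named opposite to the annotated direction of the flam transcript.

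Among the numbered loci, the plus strands of 08 and 14 came closest to flam minus. Locus 08 had 465 normalized reads on its plus strand in homozygous and 45.1 in heterozygous ovaries, a 10.3-fold difference (7.45 to 14.7). Locus 14 had 1531 normalized reads on its plus strand in homozygous and 150 in heterozygous ovaries, 10.2-fold (8.52 to 12.3). A pair of strands followed at about the same fold with few reads. The minus strand of 08 had 167 and 30.1 normalized reads in homozygous and heterozygous ovaries, 5.55-fold (3.67 to 8.71). The minus strand of 05 had 199 and 35.9 normalized reads in homozygous and heterozygous ovaries, also 5.55-fold (3.80 to 8.35). Both rest on at most 31 heterozygous reads, so their intervals are wide.

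The germline locus 42AB and locus 11 had the smallest folds. The minus strand of 42AB had 1552 normalized reads in homozygous and 552 in heterozygous ovaries, 2.81-fold (2.54 to 3.12). Its plus strand had 925 normalized reads in homozygous and 368 in heterozygous ovaries, 2.52-fold (2.22 to 2.86). The minus strand of locus 11 had 2211 normalized reads in homozygous and 810 in heterozygous ovaries, 2.73-fold (2.51 to 2.97). The intervals of these 3 strands overlap, so their order is not resolved at this depth. The largest adjusted p-values of the 8 strands in the authors' deposited table were 0.0572 for 42AB plus and 0.0528 for 08 minus, and that of 42AB minus was 0.00547. Cluster lengths are not in the files, so levels of different clusters are not compared.

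Size factors cancel when the fold of flam minus is divided by that of another strand. The fold of flam minus was 5.36 times that of 42AB plus (4.25 to 6.79), 4.80 times that of 42AB minus (3.86 to 6.00) and 4.94 times that of 11 minus (4.01 to 6.13). It was 2.43 times that of 08 minus (1.48 to 3.86) and 2.43 times that of 05 minus (1.54 to 3.74). Against 14 plus the ratio was 1.33, with an interval that barely cleared equality (1.01 to 1.73). Against 08 plus it was 1.31 and the interval held 1 (0.874 to 1.92). In all, 6 of 7 such intervals lay above 1, without adjustment for their number. With uniquely mapped reads, flam minus thus stood apart from both strands of 42AB, from 11 minus and from the minus strands of 05 and 08. It did not clearly stand apart from the plus strands of 08 and 14. The plus strand of flam, that of the annotated transcript, has no value here.

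Markers of other tissues also differed between these libraries. With uniquely mapped reads, 4 of 4 fat body markers were listed as higher, against 0.515% of all entries tested, with a summed level of 727 normalized reads in homozygous and 49.7 in heterozygous ovaries. Of the muscle markers, 4 of 4 were listed as higher, against the same 0.515%, summing to 5277 in homozygous and 1972 in heterozygous ovaries. With reads of several mappings added, 3 of 4 muscle markers and 4 of 4 fat body markers were listed as higher. Of 4 follicle cell markers, 2 were listed as lower, among 30 lower entries of about 21957 tested. These were Cp15 and Cp38, summing to 4191 normalized reads in homozygous and 11923 in heterozygous ovaries. The marker lists were chosen with earlier results of these data known, so nothing is read from how many were listed. None of the listed markers was at 0 in either library. Their part in the cluster folds was not tested. In bulk ovaries, fewer cells of a type and less RNA per cell cannot be told apart.

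Of other listed features, those nearest to flam minus in fold were Fbp1, encoding a receptor for larval serum proteins, at 13.7-fold, Lsp1alpha, a larval serum protein gene, at 12.3-fold and nAcRalpha-7E, an acetylcholine receptor subunit gene, at 12.3-fold. Nearest to 42AB minus were snoRNA:Or-CD12 at 2.74-fold, the collagen gene Cg25C at 2.68-fold and the titin-like muscle gene sls at 3.03-fold. Likeness here is the difference of log2 fold between the same pair of libraries, and nothing about function follows from it. The other entries were counted once per gene or insertion, by the isoform with the highest mean, which turned the 113 entries listed as higher with uniquely mapped reads into 49 other features and the 8 strands. These 49 features had a median of 9.70-fold, and the 8 strands one of 5.55-fold. Of the 49, 20 were transposon insertions with a median of 21.1-fold, and 29 were genes with one of 6.56-fold. With up to 10 mappings, the 367 entries gave 257 other features in the same way, with a median of 12.2-fold, and the 14 strands had one of 4.53-fold. Of the 257, 184 were insertions with a median of 15.2-fold, and 73 were genes with one of 5.72-fold. Any feature without heterozygous reads was left out of these medians. All were chosen by being listed as higher, so nothing is read from the differences.

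Reads that map to several places changed the picture by locus. Levels with up to 10 mappings are those implied by the authors' deposited means and ratios. Flam minus then had 18616 normalized reads in homozygous and 1999 in heterozygous ovaries, 9.31-fold, or 21573 and 1725 recovered reads. Of its reads, 9.45% in homozygous and 6.55% in heterozygous ovaries were uniquely mapped. At the other extreme, 99.0% of the reads of 11 minus were uniquely mapped in homozygous and 96.3% in heterozygous ovaries. Locus 11 thus gained 26 reads in homozygous and 27 in heterozygous ovaries, a ratio of 0.717 (0.402 to 1.28) in place of 2.65 for the strand as a whole. A read may have been counted at several places, so intervals with up to 10 mappings are too narrow by an unknown amount.

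For the 8 strands in both lists, the fold of uniquely mapped reads was compared with that of the reads gained. At flam minus, the gained reads numbered 19534 in homozygous and 1612 in heterozygous ovaries, 9.02-fold, and the fold of the unique reads was 1.49 times theirs (1.22 to 1.83). The same ratio was 2.26 at 08 plus (1.59 to 3.29), 2.02 at 08 minus (1.32 to 3.21) and 1.47 at 14 plus (1.18 to 1.85). At 42AB the order was the other way round, with 0.733 on the minus strand (0.653 to 0.823) and 0.846 on the plus strand (0.729 to 0.983). At 05 minus the ratio was 0.766 and its interval held 1 (0.506 to 1.19). With up to 10 mappings the fold of flam minus was 2.59 times that of 42AB minus in place of 4.80, and 1.34 times that of 05 minus in place of 2.43. Against locus 08 it moved the other way, to 1.79 times the fold of the plus strand in place of 1.31 and 3.26 times that of the minus strand in place of 2.43.

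**Figure D2:**
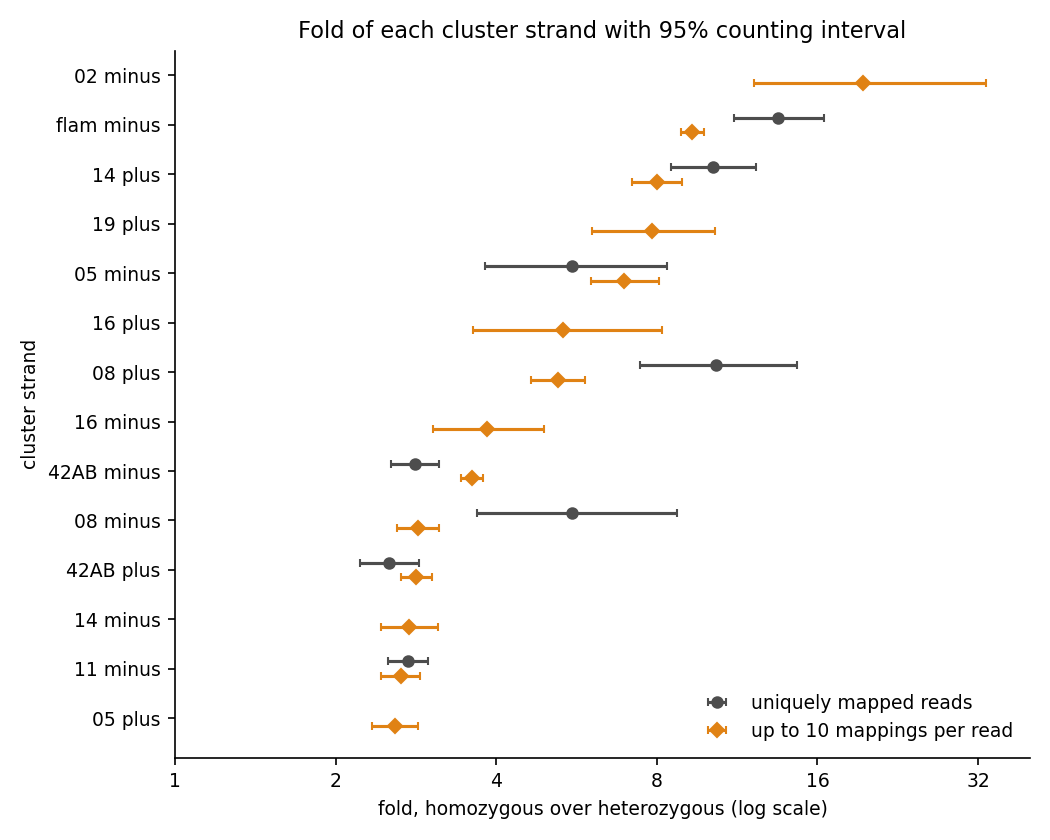
Fold of each cluster strand, homozygous over heterozygous (log scale), with uniquely mapped reads (grey circles) and up to 10 mappings per read (orange diamonds); bars are exact 95% intervals for counting error. The folds of 08 plus and 08 minus are about 10.3 and 5.55 with unique reads and 5.22 and 2.85 with up to 10 mappings, while those of 11 minus nearly coincide.

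Loci 02, 16 and 19 were listed only with up to 10 mappings. The minus strand of 02 had the largest fold of all strands in the authors' deposited table, 19.4, with implied levels of 406 normalized reads in homozygous and 20.9 in heterozygous ovaries. These are 470 and 18 recovered reads, and the interval is wide (12.2 to 33.1). Locus 19 plus had 571 normalized reads in homozygous and 73.0 in heterozygous ovaries, 7.83-fold in the authors' deposited table (6.04 to 10.3). Locus 16 had 379 and 98.5 normalized reads on its minus strand and 179 and 33.6 on its plus strand in homozygous and heterozygous ovaries. The authors' deposited table gave the minus strand a fold of 3.85 (3.04 to 4.91) and the plus strand one of 5.34 (3.61 to 8.17). These 4 strands had 208 to 662 homozygous reads, and the 8 strands listed with both treatments 1876 to 21573, so their folds are less precise by counting error. How many of their reads were uniquely mapped was not analysed here. The listing with up to 10 mappings also added 14 minus and 05 plus, at 2.74-fold and 2.58-fold in the authors' deposited table.

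Strands of a locus did not always move together. Locus 14 had 4099 plus and 1231 minus reads in homozygous ovaries, against 382 plus and 334 minus reads in heterozygous ovaries, with up to 10 mappings. The plus strand thus held 76.9% of the reads of both strands in homozygous ovaries (75.7 to 78.0) and 53.4% in heterozygous ovaries (49.6 to 57.1). Locus 05 shifted the opposite way, with 49.2% plus reads in homozygous (47.6 to 50.8) and 72.3% in heterozygous ovaries (68.9 to 75.5). At 05 the minus strand had 1876 reads in homozygous and 201 in heterozygous ovaries, and its plus strand 1818 in homozygous and 524 in heterozygous ovaries. The minus strand thus had a fold of 6.95 and the plus strand one of 2.58 in the authors' deposited table. Locus 08 had 2333 plus and 2315 minus reads in homozygous ovaries, against 333 plus and 604 minus reads in heterozygous ovaries. The plus strand held 50.2% in homozygous (48.7 to 51.6) and 35.5% in heterozygous ovaries (32.5 to 38.7). At these 3 loci the strand balance of the libraries differed by 14.7 to 23.6 percentage points, in different directions. Uniquely mapped reads were 12.3% of 05 minus in homozygous and 15.4% in heterozygous ovaries. They were 8.34% and 4.30% of 08 minus, and 43.2% and 34.0% of 14 plus. The other reads may belong to copies elsewhere, so these shares need not be those of the locus and their intervals are too narrow. Of these loci, just 08 had both strands listed with uniquely mapped reads.

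The strands of 42AB were closer to each other. With uniquely mapped reads, the plus share was 37.3% in homozygous (35.6 to 39.1) and 40% in heterozygous ovaries (36.6 to 43.5). The fold of the plus strand was 0.894 times that of the minus strand, and the interval held 1 (0.759 to 1.05). With up to 10 mappings, 42AB had 4296 plus and 10566 minus reads in homozygous ovaries, against 1129 plus and 2185 minus reads in heterozygous ovaries. The plus share was then 28.9% in homozygous (28.2 to 29.6) and 34.1% in heterozygous ovaries (32.5 to 35.7), a fold ratio of 0.787 (0.726 to 0.853). For 08 the fold of the plus over that of the minus strand was 1.86 with uniquely mapped reads (1.06 to 3.22) and 1.83 with up to 10 mappings (1.58 to 2.12). At 16 the ratio was 1.39 and its interval held 1 (0.869 to 2.27).

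**Figure D3:**
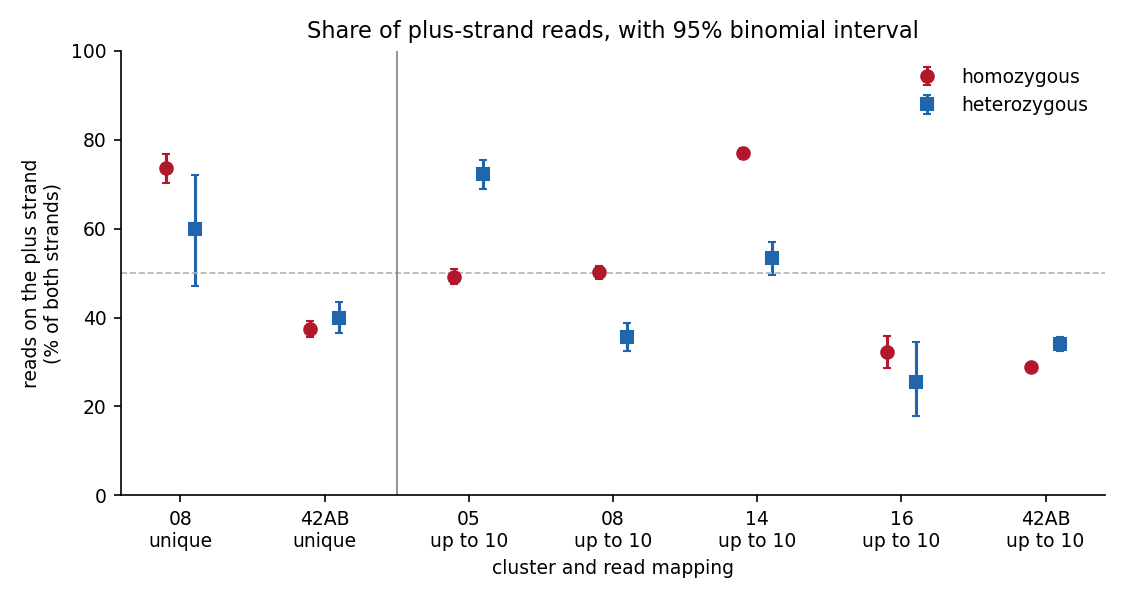
Reads on the plus strand as a percent of the reads on both strands of a locus, in the homozygous library (red circles) and the heterozygous library (blue squares), for loci with both strands listed; bars are exact 95% binomial intervals, the dashed line marks 50%, and loci right of the vertical line were counted with up to 10 mappings. Loci 08 and 14 had higher plus shares in the homozygous library, locus 05 a lower one, and 42AB differed by 2.65 points with unique reads and 5.16 points with up to 10 mappings.

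Loci also differed in how many of their strands were listed. With up to 10 mappings, 02, 11, 19 and flam had 1 listed strand each and 05, 08, 14, 16 and 42AB both. The 4 strands listed alone had folds of 2.65 to 19.4 with a median of 8.57, and the 10 strands of loci listed on both sides had 2.58 to 7.99 with a median of 3.72. The ranges overlap, and 11 minus, listed alone, had among the lowest folds. A strand that is not listed may have too few reads to pass the authors' test, so a listing on 1 side does not show transcription from 1 side.

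The dm6 annotation allows flam and 42AB to be set beside the single insertions they contain. Within lncRNA:flam, 37 transposon insertions lie on the minus and 10 on the plus strand, and they cover 57.0% and 20.5% of its 158841 bases. Of these, 5 on the minus strand and 0 on the plus strand were listed as higher with up to 10 mappings. Of all 5896 insertions annotated in dm6, 3.09% were listed so, and of all entries tested 1.55%. Of the insertions within flam, 25 of 37 on the minus strand and 5 of 10 on the plus strand belong to families with a listed insertion somewhere in the genome. Whether the strands differ in this was not tested. All 5 listed ones are LTR retrotransposon insertions of 6757 to 15521 bases, of the families blood, springer, Stalker, Stalker2 and Stalker4. None was listed with uniquely mapped reads. Boundaries of the authors' flam and 42AB are not given in the sources used here, so containment is by the dm6 annotation alone.

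**Figure D4:**
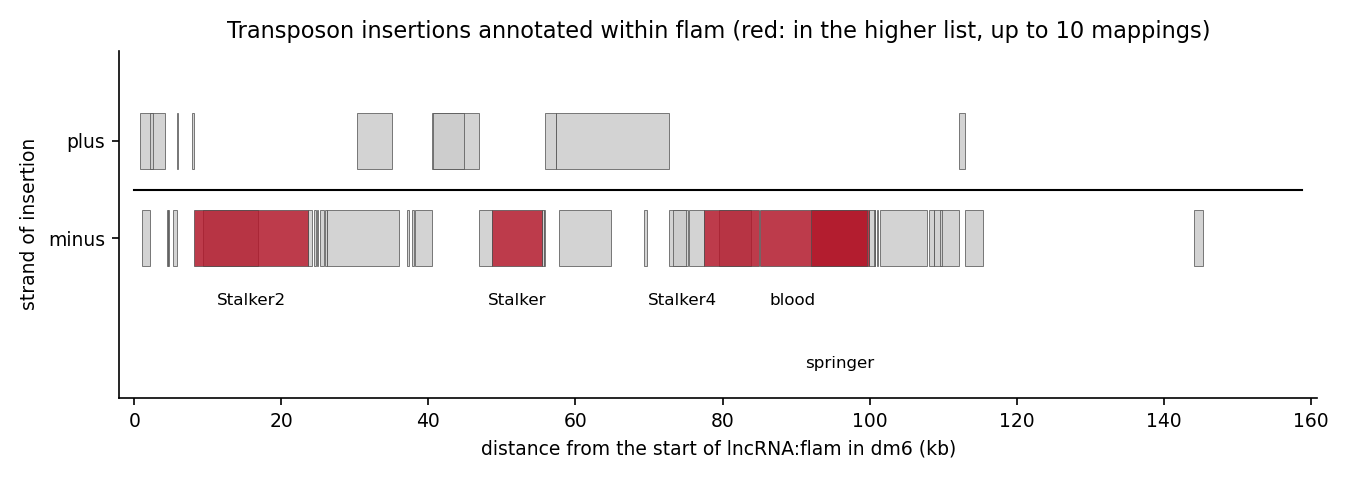
Insertions annotated within lncRNA:flam in dm6, by distance from its annotated start in kb, on the plus strand (top) and the minus strand (bottom); red insertions were listed as higher in homozygous ovaries with up to 10 mappings, and springer lies inside blood. The 5 red insertions are among 37 on the minus strand, the 10 on the plus strand are grey, and 3.09% of all annotated insertions were listed.

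The largest of them in reads was the annotated span of the blood insertion blood{}2438, on X from 21716913 to 21731788 in dm6. It had 14137 recovered reads in homozygous and 1201 in heterozygous ovaries, 8.77-fold in the authors' deposited table. The insertion springer{}2141 lies within it and had 14108 and 1201 reads in homozygous and heterozygous ovaries. If reads were counted by position, nearly all reads of the blood{}2438 span were thus those of springer{}2141. Values given for blood{}2438 are those of the span and not of blood sequence. The 9 other listed blood insertions had 238 to 338 homozygous and 2 heterozygous reads each. By contrast, 6 of the 7 other listed springer insertions had homozygous reads within 10% of those of springer{}2141. Reads that match several copies of springer cannot be assigned to flam rather than to another copy.

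The reads of the blood{}2438 span, springer{}2141 included, equal 65.5% of those of flam minus in homozygous and 69.6% in heterozygous ovaries. Those of springer{}2141 by itself equal 65.4% and 69.6%. Stalker2{}1637, on X from 21640019 to 21655539, had 1715 reads in homozygous and 35 in heterozygous ovaries, 36.5-fold in the authors' deposited table, or 7.95% and 2.03% of the strand. It was the insertion in flam with the largest fold. Its 7 other listed copies had 1663 to 1992 homozygous reads, and again these cannot be told apart. Stalker{}2534 and Stalker4{}2440 had 347 and 134 homozygous reads and were 8.91-fold and 9.07-fold higher in the authors' deposited table.

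The reads of listed insertions were then left out of the strand, with nested ones counted once, on the assumption that each of them had been counted for the strand. These insertions were chosen by being listed as higher, so their own folds are a description and no contrast with the rest of a strand is drawn from them. Leaving them out lowers the fold of the rest wherever theirs exceeds that of the strand. Flam minus kept 5240 reads in homozygous and 449 in heterozygous ovaries, an 8.69-fold difference (7.89 to 9.59). The listed insertions as a sum had 9.53-fold. With blood{}2438 alone left out, at 8.77-fold (8.26 to 9.31), the rest of the strand had 10.6-fold (9.67 to 11.6), so the fold of the rest lay below or above that of the whole strand by how many insertions were left out. The uniquely mapped reads of flam minus, among which no insertion in flam was listed, gave the still larger 13.5-fold.

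The same values were taken for 42AB. The locus was set as the 246739 bases between the genes Pld and jing, on chromosome arm 2R from 6255267 to 6502005 in dm6. It contains 40 annotated insertions on the minus and 50 on the plus strand, of which 4 and 4 were listed with up to 10 mappings. Of all 5896 insertions annotated in dm6, 3.09% were listed so, and of all entries tested 1.55%. Some of those listed in 42AB lie within another listed span, so these are not independent listings and nothing is read from their number. On the minus strand, gypsy12{}2214, an LTR retrotransposon insertion, had 5370 reads in homozygous and 459 in heterozygous ovaries, 8.71-fold in the authors' deposited table. That is 50.8% of the reads of 42AB minus in homozygous and 21.0% in heterozygous ovaries. It exceeds the 4296 homozygous reads of 42AB plus, so reads of this minus-strand insertion were not all counted for the plus strand. Just 1 other gypsy12 insertion was listed, with 136 homozygous and 4 heterozygous reads.

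The other listed insertions on the minus strand of 42AB had fewer reads. They were NOF{}1599 with 667 homozygous and 148 heterozygous reads, rooA{}1584 within it with 461 and 66, and 1731{}2219 with 450 and 64. On the plus strand, Rt1b{}1666 is named for a retrotransposon without LTRs, and its annotated span covers 66001 of the 246739 bases. The whole span had 1207 homozygous and 168 heterozygous reads, 5.35-fold in the authors' deposited table. Other listed insertions lie within it, so its reads are not those of 1 element. Leaving it out of the strand leaves out all of this span. GATE{}1713 and Max{}2206 lie within that span, with 664 and 236 homozygous reads and 72 and 35 heterozygous reads. GATE{}1643, farther along, had 553 homozygous and 17 heterozygous reads, 24.2-fold in the authors' deposited table.

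Without its listed insertions, 42AB minus kept 4079 reads in homozygous and 1514 in heterozygous ovaries, a 2.01-fold difference (1.89 to 2.13) in place of 3.60-fold. The plus strand kept 2536 and 944 reads in homozygous and heterozygous ovaries, 2.0-fold (1.86 to 2.16) in place of 2.83-fold. These lower folds follow in part from leaving out features listed as higher. In normalized reads, the sum of the listed insertions was 7.20 times higher for the minus strand (6.65 to 7.81) and 7.08 times higher for the plus strand (6.09 to 8.29).

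Uniquely mapped reads are those placed at a single position of the reference genome. Whether some came from copies in these flies that differ from the reference was not tested. With uniquely mapped reads, gypsy12{}2214 had 445 reads in homozygous and 42 in heterozygous ovaries, 7.92-fold (5.77 to 11.1). That is 24.8% and 8.81% of the reads of 42AB minus. The rest of the strand had 1350 and 435 reads in homozygous and heterozygous ovaries, 2.32-fold (2.08 to 2.59). The 66001-base span of Rt1b{}1666 had 358 reads in homozygous and 73 in heterozygous ovaries, 3.67-fold (2.84 to 4.78). The rest of 42AB plus had 2.17-fold (1.88 to 2.52). Both insertions were chosen by being listed as higher, so here too no contrast with the rest of a strand is drawn.

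**Figure D5:**
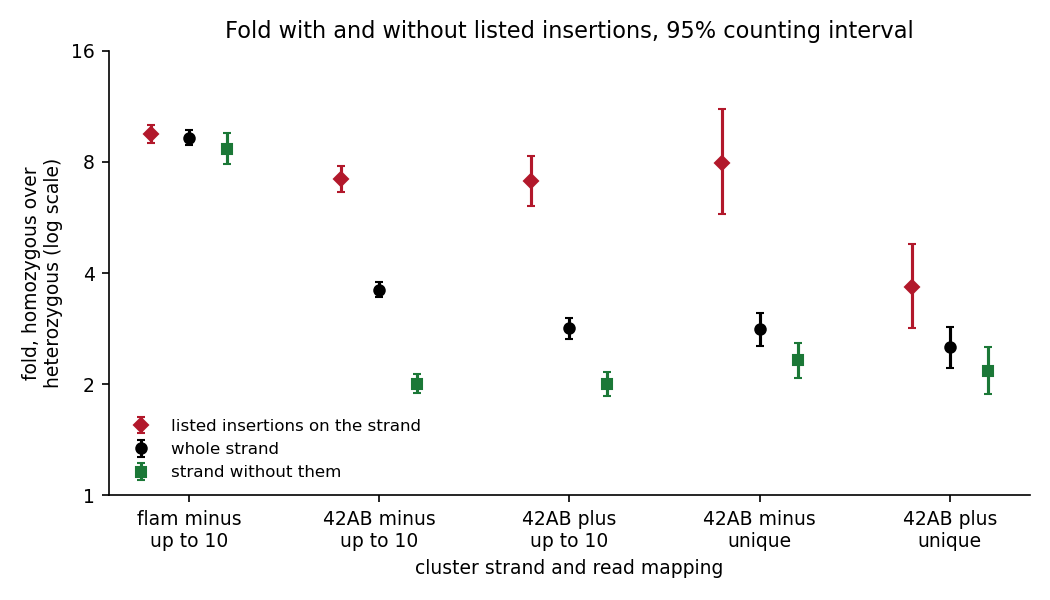
Fold, homozygous over heterozygous (log scale), of the listed insertions on a cluster strand (red diamonds), of the whole strand (black circles) and of the strand without those insertions (green squares), with up to 10 mappings or uniquely mapped reads; bars are exact 95% counting intervals. At flam minus the 3 values lie between 8.69 and 9.53. At 42AB with up to 10 mappings the strand without insertions lies at 2.01 (minus) and 2.0 (plus). The insertions were chosen by being listed as higher, so no contrast between them and the rest is drawn.

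Transposon families that clusters are known to target were listed in part with up to 10 mappings. Of gypsy, ZAM and Idefix, the classic targets of flam, 1 was listed as higher, Idefix, with 5 insertions whose folds in the authors' deposited table were 4.71 to 5.66. Of 10 other LTR families of follicle cells 7 were listed as higher, and of 12 germline families 9. Of all 156 families annotated in dm6, 46 were listed, or 29.5%. The families named here were chosen with earlier results of these data known, so nothing is read from the difference. Fragments of gypsy, ZAM and Idefix are annotated on the minus strand within flam, and none of these was listed. Of 8 genes for cluster transcription and export, among them rhi, del and cuff, and of 25 genes for Piwi proteins and piRNA processing, none was in any list. The same is true of DIP1, the gene beside flam, and of Pld and jing beside 42AB, so no value for these genes was analysed here. Of all entries tested, 0.515% with uniquely mapped reads and 1.55% with up to 10 mappings were listed as higher. Another 30 and 27 entries were listed as lower. At such small shares, nothing is read from the absence of these genes.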

How the data were processed

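RNA-seq was analysed from 1 homozygous and 1 heterozygous library. TopHat 1.4.1, Bowtie 0.12.8, DESeq 1.8.2, bedtools and the build dm3 appear in the submitters' processing notes, with no roles. The authors deposited lists of features that passed their test. Per the file headers, the signal columns are normalized read counts, the fold column is a heterozygous over homozygous ratio, inverted here, and the log2 column is its log2. Raw and adjusted p-values are as deposited by the authors, and none was computed. In the lists with up to 10 mappings, 4 columns are headed zucMUT or zucCD, names that match no sample, and were not read. Levels there were computed from the deposited mean and ratio. All 143 entries with uniquely mapped reads and all 394 with up to 10 mappings gave whole reads in both libraries within 0.001 read. Of 134 entries in both treatments, 34 had the same reads in both libraries and 0 had fewer with up to 10 mappings, so both treatments were read as the same pair of libraries, which no label states. Selected features cannot be given to a count model, and 1 library per genotype leaves no spread to estimate.

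Intervals are Clopper-Pearson for ratios of 2 counts and for shares, and exact conditional odds ratio intervals for ratios of folds (SciPy 1.17.1, Python 3.11.15). The calculation was tested on simulated data. Positions came from Ensembl release 115 (dm6) by identifier, never converted from dm3. Of 24 pairs of a listed gene and a listed insertion inside it, 23 lay on the same strand, while 52 annotated insertions in those listed genes lie on the same and 44 on the opposite strand. No source used here says whether counting used strand. Cluster strands, genes nearest in fold to flam minus and 42AB minus (3 each, at least 20 normalized homozygous reads) and members of fixed lists are named. Insertions inside flam and 42AB were named after their values were seen. The members and lists were chosen with earlier results of these data known.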

Additional observations from a re-analysis of the deposited data

How the results depend on the processing

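No paired analysis was possible because the genotypes have 1 library each, and for the same reason no library could be left out. Leaving out listed insertions or uniquely mapped reads was chosen after seeing the data. Of the alternatives, 49 values stayed within the counting interval, or a count within 1.5 times, 33 moved outside it and 1 reversed. A pseudocount of 1 or 10 moved no value outside its interval. Counts fell under stricter thresholds, as fewer entries then qualify. With uniquely mapped reads, 5 strands had an authors' adjusted p under 0.01 and 5 had at least 4-fold, in place of 8, against 14 with up to 10 mappings. In that list the numbers were 9, 7 and 9 with each locus counted once, in place of 14. With no size factor, folds were higher by the depth ratio, at 18 for flam minus, 13.6 for 14 plus, 3.76 for 42AB minus, 3.65 for 11 minus and 3.36 for 42AB plus. With up to 10 mappings, folds moved to 9.31 for flam minus, 5.22 for 08 plus, 7.99 for 14 plus, 2.85 for 08 minus and 3.60 for 42AB minus, and the cause was not tested. The fold of flam minus over that of another strand then moved to 1.34 for 05 minus, 2.59 for 42AB minus, 3.52 for 11 minus and 3.29 for 42AB plus. Subtracting the listed insertion with the most reads gave 10.6 for flam minus, 2.24 for 42AB minus and 2.39 for 42AB plus with up to 10 mappings, and 2.32 and 2.17 for the 42AB strands with uniquely mapped reads. Subtracting all gave 8.69, 2.01 and 2.0. Subtracting uniquely mapped reads gave 6.88 for 14 plus, 4.55 for 08 plus and 3.82 for 42AB minus, and turned 11 minus to 0.717 on 26 homozygous and 27 heterozygous reads. The level with up to 10 mappings over the uniquely mapped level was 5.54 for 42AB minus and 1.02 for 11 minus by the means, and 5.87 and 1.01 in the homozygous library alone. Depth limits 02 minus with 18 heterozygous reads, 08 minus with 26 and 16 plus with 29.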
